A study of Mus musculus with 12 samples.

Results

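The core genes of the circadian clock and of its direct output were examined in the mouse liver transcriptome as 10 genes: *Arntl*, *Npas2*, *Per1*, *Per2*, *Per3*, *Cry1*, *Nr1d1*, *Nr1d2*, *Dbp* and *Ciart*. They were taken by gene name from a count table of 36228 genes, without use of their values, and all 10 have a row in it. Of the 10, 7 had at least 1 read in at least 1 library, and 5 (*Arntl*, *Cry1*, *Nr1d1*, *Nr1d2*, *Dbp*) passed the filter on low counts and were tested. Since the level of these genes follows the time of day, their pattern in each library also bears on the time at which each liver was taken, which no source used here states.

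The libraries were made from whole liver of 12 C57BL/6N mice aged 8 to 10 weeks, with 1 library per mouse. The IDH2 KO mice carried a germ-line Idh2-/- deletion, which removes the mitochondrial NADP-dependent isocitrate dehydrogenase from all cells and not only from the liver, and the WT mice were their littermates. There were 4 WT females, 3 WT males, 3 IDH2 KO females and 2 IDH2 KO males, kept under 12 h of light a day, bled to death by heart puncture under tribromoethanol anesthesia, with the liver placed in an RNA stabilizing solution. RNA was sequenced as single reads of 50 bases, and the table holds the reads per gene.

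The libraries held 15323300 to 25019649 reads each, of which 22.5 to 50.1% came from genes of the mitochondrial genome. *Idh2* had 967 to 2363 reads in each WT library and 1 to 7 in each IDH2 KO library. All 5 hepatocyte markers had reads in the table, with a summed level of 72709 to 226380 CPM (counts scaled to library size), as suits liver. The library of IDH2 KO female 3 stood apart with 8531 genes with reads, against 10482 to 12873 in the other 11, and results that rest on it are given with and without it. WT male 1 held 862 reads of *Epcam* and 174 of *Krt19*, both markers of bile duct cells, with a summed level of 61.3 CPM against at most 1.62 CPM in the other 11 libraries.

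The clock is a loop of transcription. The protein of *Arntl* (BMAL1) pairs with CLOCK or with its relative, the product of *Npas2*, and the pair activates genes that carry an E-box. Among these genes are *Per1*, *Per2*, *Per3*, *Cry1* and *Ciart*, whose products inhibit the pair, and *Nr1d1* and *Nr1d2*, which encode REV-ERBα and REV-ERBβ, nuclear receptors that repress *Arntl* through a response element shared with the ROR activators. *Dbp* encodes a transcription factor that binds D-boxes and passes the rhythm on to liver enzymes of detoxification and lipid metabolism. In the liver of mice kept in light and dark, *Dbp* and both *Nr1d* genes are high while *Arntl* is low, and the reverse, and *Cry1* follows late.

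Promoters are shown for the members whose levels are compared most closely below. *Dbp* and *Nr1d2* tended to vary together from liver to liver, *Arntl* tended to run against *Dbp*, and *Cry1* is the tested member whose window holds an E-box. Each is the sense strand from 250 bases before to 50 bases after the gene start, from RefSeq on GRCm38.p6. Capitals mark a match to 1 of the 3 motifs searched on both strands, which were the E-box (CACGTG), the D-box (TTATGTAA or TTACGTAA) and the ROR response element (AA and any base before TAGGTCA or TGGGTCA).
Arntl promoter, chr7:113207261-113207560, plus strand: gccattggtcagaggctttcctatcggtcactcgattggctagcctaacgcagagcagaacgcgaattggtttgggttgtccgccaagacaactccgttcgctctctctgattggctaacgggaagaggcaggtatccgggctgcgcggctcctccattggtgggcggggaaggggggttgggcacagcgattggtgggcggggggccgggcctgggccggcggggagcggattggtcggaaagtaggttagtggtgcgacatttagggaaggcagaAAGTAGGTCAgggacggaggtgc
Dbp promoter, chr7:45704997-45705296, plus strand: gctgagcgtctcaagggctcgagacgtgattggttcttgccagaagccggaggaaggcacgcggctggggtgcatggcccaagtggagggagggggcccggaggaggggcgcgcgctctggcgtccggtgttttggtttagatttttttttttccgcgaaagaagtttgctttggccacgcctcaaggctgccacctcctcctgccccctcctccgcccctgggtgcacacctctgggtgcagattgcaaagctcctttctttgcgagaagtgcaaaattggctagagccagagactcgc
Nr1d2 promoter, chr14:18239057-18239356, minus strand: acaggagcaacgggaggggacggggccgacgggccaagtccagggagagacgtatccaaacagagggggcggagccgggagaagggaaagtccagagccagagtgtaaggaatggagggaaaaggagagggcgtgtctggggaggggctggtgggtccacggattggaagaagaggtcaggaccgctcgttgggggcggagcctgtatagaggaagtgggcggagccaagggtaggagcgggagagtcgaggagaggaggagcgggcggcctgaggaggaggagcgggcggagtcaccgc
Cry1 promoter, chr10:85185005-85185304, minus strand: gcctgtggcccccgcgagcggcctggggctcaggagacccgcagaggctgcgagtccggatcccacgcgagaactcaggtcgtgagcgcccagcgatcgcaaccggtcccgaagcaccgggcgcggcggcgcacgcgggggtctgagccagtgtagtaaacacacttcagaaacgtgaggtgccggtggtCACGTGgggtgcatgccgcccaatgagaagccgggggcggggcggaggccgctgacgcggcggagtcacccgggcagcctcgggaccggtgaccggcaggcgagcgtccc

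The *Arntl* window holds a ROR response element that starts 28 bases after the gene start, a motif found in 0.435% of 32851 mouse promoters of this length. RefSeq gives *Arntl* 2 overlapping windows, and only the later of them, printed here, holds it. The *Cry1* window holds an E-box that starts 60 bases before the start, found in 7.15% of all promoters. The same search found an E-box at *Per1* and 3 at *Ciart*, and 2 D-boxes at *Per3*, 205 and 158 bases before its start, where 1.06% of all promoters have a D-box. None of the 3 motifs was in the windows of *Dbp*, *Nr1d1* and *Nr1d2*, which says only that these letters are not in these 300 bases. The search covered 9 of the 10 members, all but *Per2*. A match is a run of letters and was not tested as a binding site.

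In the gene annotation of GRCm38 (GENCODE M21), *Dbp* lies on the plus strand of chromosome 7 from 45705088 to 45710203 and *Arntl* on the same strand from 113207465 to 113314126. The deleted *Idh2* lies between them, from 80094846 to 80115392. *Nr1d2* lies on chromosome 14 from 18204054 to 18239127 and *Cry1* on chromosome 10 from 85131700 to 85185064, both on the minus strand. *Nr1d1* lies on the minus strand of chromosome 11 from 98767932 to 98775333 and shares 1075 bases with *Thra*, the thyroid hormone receptor α gene on the other strand. By their RefSeq spans, *Dbp* also overlaps *Sphk2*, *Arntl* overlaps *Gm33721*, *Per2* overlaps *Gm35591* and *Per3* overlaps *Uts2*. No source used here says whether strand was used in counting, so reads from shared bases cannot be told apart.

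The inhibitors of the loop were hardly seen. *Per1*, *Ciart* and the activator *Npas2* were listed at 0 in all 12 libraries, that is 0 of 241346756 reads, which allows up to 3 reads or 0.0124 RPM (reads scaled to library totals) for each, counting error only. *Clock*, whose product pairs with that of *Arntl*, the cryptochrome gene *Cry2*, and *Tef* and *Hlf*, the relatives of *Dbp*, were also listed at 0. So were *Por* and *Alas1*, genes that hepatocytes express and that are also on the list of liver clock outputs below. A listing at 0 was therefore not taken as absence of the RNA. Among protein-coding genes, 46.9% of those with 1 RefSeq transcript and 48.6% of those with 6 or more had no read in any library.

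*Per2*, an inhibitor of the activating pair, had 0 to 4 reads in 11 libraries and 14 in IDH2 KO male 2. The 5 IDH2 KO libraries together held 18 of its reads and the 7 WT libraries 12, an RPM ratio of 2.24 with an exact 95% interval of 1.02 to 5.11. Without IDH2 KO male 2 the ratio was 0.592 with an interval of 0.139 to 1.95. The excess was thus that of 1 liver, and the intervals cover counting error only. *Per3*, a further member of the Period family, had 8 reads in WT male 2, 3 in WT female 2 and 0 in the other 10 libraries. WT female 2 and WT male 2 were 2 of the livers richest in *Dbp* and *Nr1d2*, as the values below show. WT male 3, the richest in *Dbp*, had 0 reads of *Per3*. The libraries of WT female 2 and WT male 2 also had the most genes with reads (12643 and 12873). Their shares of mitochondrial reads were the lowest (22.5 and 25.9%). The part of these library traits in the reads of *Per3* was not tested.

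*Dbp*, the output transcription factor, was the member that varied most. Its level was 2.42, 14.4, 2.12 and 2.60 CPM in WT females 1 to 4 and 0.888, 9.75 and 27.9 CPM in WT males 1 to 3. It was 12.6, 12.9 and 2.14 CPM in IDH2 KO females 1 to 3 and 0.357 and 4.50 CPM in IDH2 KO males 1 and 2. The lowest and the highest liver differed 78.2-fold, from 8 reads in IDH2 KO male 1 to 419 in WT male 3. The WT livers alone spanned 31.5-fold and the IDH2 KO livers alone 35.99-fold, and the genotypes overlapped.

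Livers of the same group differed widely in each of the 4 groups. WT female 2 had 411 reads of *Dbp* while the other 3 WT females had 43 to 56. IDH2 KO females 1 and 2 had 302 and 226 reads while female 3 had 29. Among WT males, male 1 had 15 reads, male 2 had 242 and male 3 had 419. IDH2 KO males 1 and 2, at 0.357 and 4.50 CPM, differed 12.6-fold. The mean was 8.59 ± 9.88 CPM (SD, n = 7) in WT and 6.49 ± 5.87 CPM (SD, n = 5) in IDH2 KO livers, so the SD was of the size of the mean in both.

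*Nr1d2*, which encodes the repressor REV-ERBβ, was high in the same livers. Its level was 12.6, 32.4, 12.2 and 13.2 CPM in WT females 1 to 4 and 18.9, 40.6 and 39.2 CPM in WT males 1 to 3. It was 26.3, 31.2 and 0.813 CPM in IDH2 KO females 1 to 3 and 11.8 and 23.3 CPM in IDH2 KO males 1 and 2. The value of IDH2 KO female 3 rests on 11 reads, against 245 to 1007 reads in the other 11 libraries, and it is the library with the fewest genes detected. The IDH2 KO livers spanned 38.3-fold with it and 2.64-fold without it, while the WT livers spanned 3.32-fold. Means were 24.1 ± 12.8 CPM (SD, n = 7) in WT livers and 18.7 ± 12.3 CPM (SD, n = 5) in IDH2 KO livers, or 23.1 ± 8.24 CPM (SD, n = 4) without that library.

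*Nr1d1*, which encodes the other REV-ERB repressor, varied less. It was 141, 127, 156 and 132 CPM in WT females 1 to 4 and 108, 77.8 and 150.2 CPM in WT males 1 to 3. It was 234, 236 and 136 CPM in IDH2 KO females 1 to 3 and 45.9 and 172 CPM in IDH2 KO males 1 and 2. Of the 5 IDH2 KO livers 3 were above and 1 was below all WT livers, so the genotypes overlapped with a wider spread in IDH2 KO. Means were 127 ± 27.1 CPM (SD, n = 7) in WT and 165 ± 78.8 CPM (SD, n = 5) in IDH2 KO livers, from 1027 to 5624 reads per library.

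*Arntl*, the activator, was even in most livers and low in 1. It was 3.03, 2.46, 2.66 and 1.62 CPM in WT females 1 to 4 and 3.49, 2.05 and 0.533 CPM in WT males 1 to 3. It was 2.37, 2.50 and 3.33 CPM in IDH2 KO females 1 to 3 and 3.17 and 2.90 CPM in IDH2 KO males 1 and 2. WT male 3, with 8 reads against 35 to 71 in the other 11 livers, was the lowest in *Arntl* and the highest in *Dbp*. All 5 IDH2 KO livers lay within the range of the WT livers, at 2.85 ± 0.413 CPM (SD, n = 5) against 2.26 ± 0.978 CPM (SD, n = 7), or 2.55 ± 0.670 CPM (SD, n = 6) without WT male 3.

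*Cry1*, an inhibitor of the activating pair, was near the limit of the filter, with 0 to 27 reads per library. It was 0.565, 0.176, 0.788 and 0.603 CPM in WT females 1 to 4 and 0.651, 0.121 and 0.800 CPM in WT males 1 to 3. It was 0.708, 0.626 and 0 CPM in IDH2 KO females 1 to 3 and 1.21 and 0.984 CPM in IDH2 KO males 1 and 2. The lowest WT livers were WT female 2 and WT male 2, with 5 and 3 reads, which were both among the livers high in *Dbp* and *Nr1d2*, but WT male 3, the highest in *Dbp*, had 12. IDH2 KO male 1, the lowest in *Dbp*, had the most *Cry1*, with 27 reads.

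**Figure D1:**
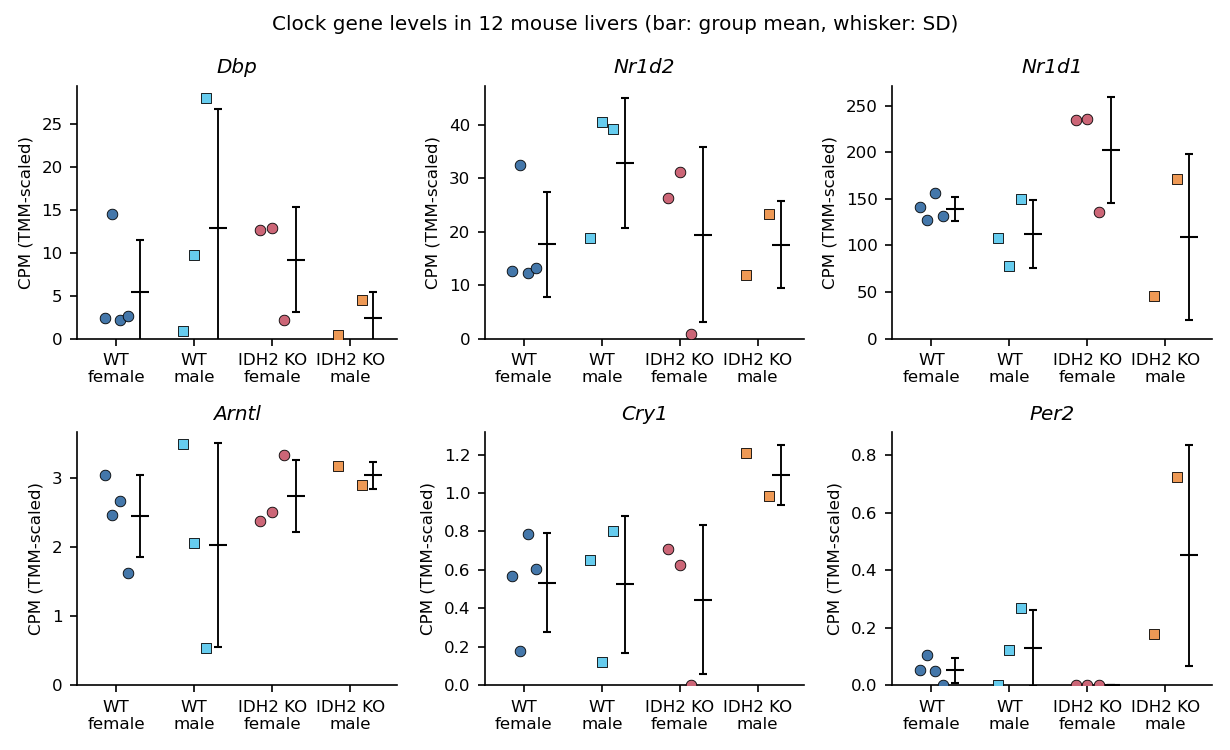
Level of 6 clock genes in each of the 12 livers, in CPM after TMM scaling (y axes, linear, from 0), by genotype and sex (x axes); circles are females, squares males, and the black mark beside each group is its mean with the SD, drawn down to 0 at most. *Dbp* ran from 0.357 to 27.9 CPM and spread widely within each of the 4 groups, while *Arntl* stayed between 1.62 and 3.49 CPM in 11 livers and was 0.533 CPM in WT male 3.

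The spread of *Dbp* was wide against that of other genes of the liver. After sex and genotype were fitted, its biological coefficient of variation (BCV, the relative SD between livers beyond counting error) was 0.943, above that of 99.4% of the 7618 genes tested. Genes of the same abundance had a BCV of 0.406 by the fitted trend, and in ratio of dispersions to that trend *Dbp* stood at percentile 99.9. *Nr1d2* had a BCV of 0.661 where the trend was 0.370, at percentile 99.2 of the same ratio. Without IDH2 KO female 3, the BCV of *Nr1d2* was 0.441 where the trend was 0.264, at percentile 97.3 of the ratio, and that of *Dbp* was 1.12 where the trend was 0.295, at percentile 99.9. With each of the other libraries left out in turn, the BCV of *Nr1d2* was 0.651 to 0.685 and that of *Dbp* 0.836 to 0.974.

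The other 3 tested members lay near the trend over the 12 livers. The BCV of *Nr1d1* was 0.368 where the trend was 0.346, that of *Cry1* was 0.669 where it was 0.615, and that of *Arntl* was 0.414 where it was 0.457. Their ratios stood at percentiles 69.4, 72.1 and 44.9. This too depended on single libraries, since *Nr1d1* had 0.347 where the trend was 0.249 (percentile 94.3) without IDH2 KO female 3, and *Arntl* had 0.318 where it was 0.466 (percentile 4.36) without WT male 3.

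**Figure D2:**
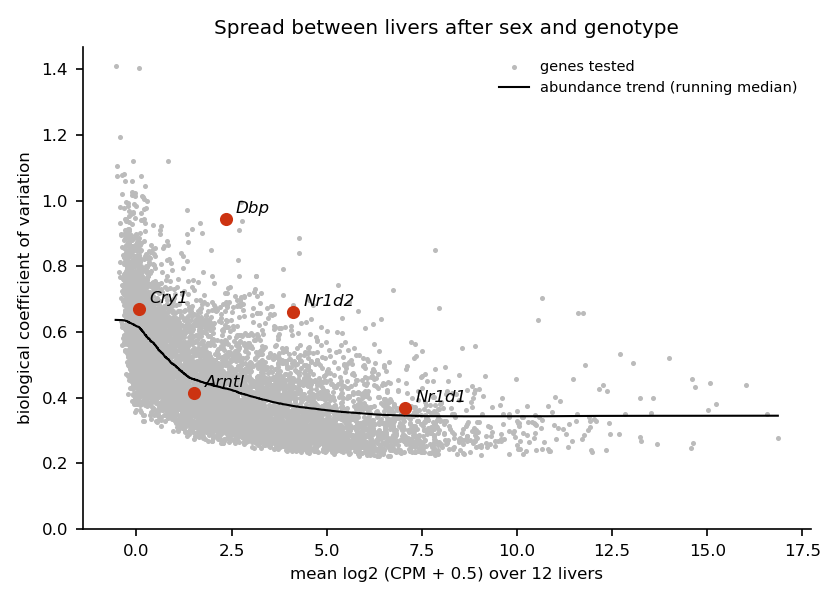
Biological coefficient of variation after sex and genotype (y axis, from 0) against mean log2 (CPM + 0.5) over the 12 livers (x axis) for the 7618 genes tested in grey, with the 5 tested clock genes in red; the line is the fitted trend with abundance, drawn as a running median. *Dbp* (0.943) and *Nr1d2* (0.661) lie above the line, while *Nr1d1*, *Arntl* and *Cry1* lie near it.

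The first comparison asked whether the clock genes differed between IDH2 KO and WT livers. None of the 5 tested members passed the threshold of an adjusted p of 0.05 in edgeR's quasi-likelihood test with sex in the model, where 0.381% of the 7618 genes tested did, and none had an unadjusted p under 0.05, where 6.72% of genes did. DESeq2 and limma called 0 of the 5 as well. The 5 log2 differences had a median of 0.31, against -0.0045 for all genes tested. The 3 positive ones were *Cry1* with 0.37 (SE 0.66), *Arntl* with 0.33 (SE 0.36) and *Nr1d1* with 0.31 (SE 0.29), and the negative ones were *Dbp* with -0.33 (SE 0.95) and *Nr1d2* with -0.27 (SE 0.58). Adjusted p in edgeR ran from 0.875 for *Nr1d1* to 0.968 for *Dbp*.

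These errors leave room for changes of several fold in *Dbp*, so the test does not show equal levels. The sign for *Dbp* turned without WT female 2 (0.28), without WT male 3 (0.13) or without IDH2 KO male 1 (0.23), and that for *Nr1d2* without IDH2 KO female 3 (0.016). For *Nr1d1* the neighbor *Thra*, with which it shares bases, had a log2 difference of 0.69 (SE 0.34, edgeR adjusted p = 0.756). The mean of *Thra* was 9.89 CPM in WT and 17.9 CPM in IDH2 KO livers, or 12.5 CPM without IDH2 KO female 3.

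Within each sex the direction for *Dbp* differed. Among females, where 0.174% of 8644 genes were called and 5.25% had an unadjusted p under 0.05, *Dbp* had a log2 difference of 0.78 (SE 0.99, edgeR adjusted p = 0.958), *Nr1d1* 0.53 (SE 0.38) and *Nr1d2* 0.16 (SE 0.73). Among males, where 0.0925% were called and 4.27% had an unadjusted p under 0.05, *Dbp* had -2.40 (SE 1.32, edgeR adjusted p = 1), *Nr1d2* -0.89 (SE 0.90), *Arntl* 0.59 (SE 0.58) and *Cry1* 1.10 (SE 1.02). None of the 5 members was called in either sex or had an unadjusted p under 0.05. The difference between the sexes was tested as an interaction, in which 0% of 8644 genes were called and 3.17% had an unadjusted p under 0.05. For *Dbp* it was -3.17 (SE 1.64, edgeR adjusted p = 1), and it was -5.90 to -1.89 with each library left out in turn. With no filter on low counts edgeR called *Dbp* in males (adjusted p = 0.00316) and in the interaction (adjusted p = 0.00327), and no other alternative did.

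WT males and WT females were compared to see whether sex alone moved these genes. Of all genes 0.659% were called and 5.89% had an unadjusted p under 0.05, and of the 5 members 0 did either. *Dbp* was higher in males by 1.24 (SE 0.99) and *Nr1d2* by 0.89 (SE 0.73) on the log2 scale, with adjusted p of 1 in edgeR. For *Dbp* the value was -0.034 without WT male 3. In both comparisons of males and in the interaction, the few males in each group (3 WT, 2 IDH2 KO) limit the precision.

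**Figure D3:**
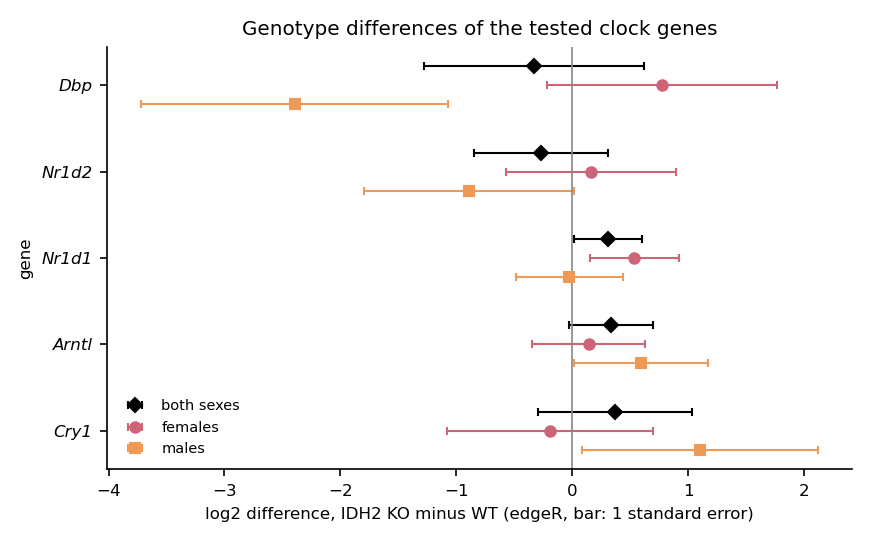
Log2 difference between IDH2 KO and WT livers (x axis, IDH2 KO minus WT, from edgeR, bars of 1 standard error) for the 5 tested clock genes (y axis), over both sexes (diamonds), in females (circles) and in males (squares). *Dbp* has the widest bars, with 0.78 in females and -2.40 in males, and no value was called.

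A second question was whether the members of the loop moved together from liver to liver. Over the 12 livers, all 10 pairs of the 5 tested members were correlated on log2 (CPM + 0.5), with permutation tests of 100000 draws, two-sided. The permutation p values here and below were not adjusted for the number of pairs. *Dbp* and *Nr1d2* rose together, with a Pearson's r of 0.58 (permutation p = 0.0355) and a Spearman's rho of 0.83 (permutation p = 0.00142). Without the 2 livers farthest from the median of *Dbp*, WT male 3 and IDH2 KO male 1, r was 0.57 (permutation p = 0.0523). IDH2 KO female 3 lay away from the others, and without it r was 0.86. Within the 7 WT livers r was 0.83 and within the 7 females 0.70.

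*Arntl* ran against *Dbp*, with an r of -0.66 (permutation p = 0.0106) and a rho of -0.76 (permutation p = 0.00640). Without WT male 3 and IDH2 KO male 1, r was -0.45 (permutation p = 0.198), so the linear relation rests on those livers, and it was -0.51 without WT male 3 alone. Within the 7 WT livers r was -0.74 and within the 7 females -0.18. *Arntl* and *Nr1d2* had an r of -0.44 (permutation p = 0.106) and a rho of -0.69 (permutation p = 0.0166). *Dbp* and *Nr1d1* had an r of 0.54 (permutation p = 0.0647), which was -0.029 within the 7 WT livers. *Cry1* had an r between -0.22 and 0.35 with each of the other 4 members, with permutation p of 0.263 or more. The value of 0.35, with *Nr1d2*, rests on IDH2 KO female 3, which had 0 CPM of *Cry1*. Without that library it was -0.52, and the r of *Cry1* was -0.44 with *Dbp*, 0.060 with *Arntl* and 0.030 with *Nr1d1*.

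The pairs share libraries and scaling. *Dbp* had an r of -0.0045 and *Nr1d2* of 0.19 with the share of mitochondrial reads over the 12 livers. Without the 2 livers farthest in that share, WT female 2 and WT male 2, the r was 0.57 for *Dbp* (permutation p = 0.0867) and 0.87 for *Nr1d2* (permutation p = 0.00497), while without IDH2 KO female 3 alone it was -0.079 and -0.27. The part of this share in the levels was not tested. *Dbp* had an r of 0.12 with the number of genes with reads. For *Nr1d2* the r with the number of genes with reads was 0.72 over 12 livers and 0.028 without IDH2 KO female 3.

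**Figure D4:**
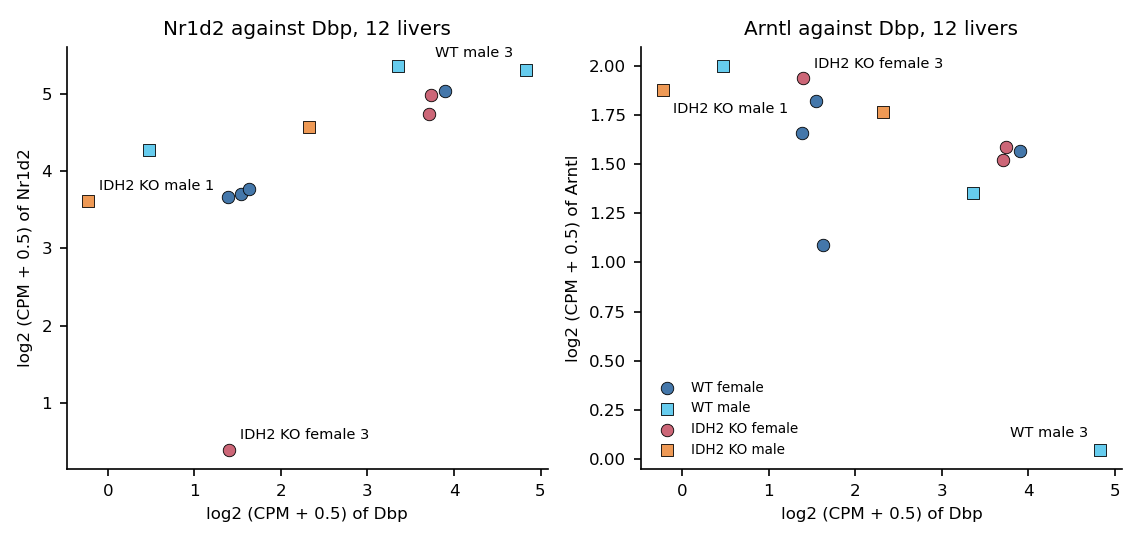
Log2 (CPM + 0.5) of *Nr1d2* (left, y axis) and of *Arntl* (right, y axis) against that of *Dbp* (x axes) in the 12 livers, with colour and shape giving genotype and sex. *Nr1d2* rises with *Dbp* in all but IDH2 KO female 3 (r of 0.86 without it). *Arntl* tends to fall as *Dbp* rises (r of -0.66, and -0.51 without WT male 3). It is clearly low only in WT male 3.

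The same question was put to all genes in edgeR, with sex and genotype in the model and the log2 level of *Arntl* as a covariate. No gene passed the threshold, that is 0% of 7617, and 1.29% had an unadjusted p under 0.05, as did 1 of the 4 members tested, *Dbp*. Limma also called 0 genes. *Dbp* had a slope of -2.44 (SE 0.74, n = 12, p = 0.00530 in edgeR, adjusted p = 1), the log2 change per log2 unit of *Arntl*, and ranked 8th of the 7617 genes by p. The slopes of *Nr1d2* (-0.78, SE 0.63), *Nr1d1* (-0.39, SE 0.28) and *Cry1* (-0.18, SE 0.70) were also negative, and the median of the 4 was -0.59 against 0.013 for all genes. That of *Cry1* was 0.27 without WT male 3, 0.012 without scaling factors and 0.012 with limma on log2 (RPM + 1).

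The slope of *Dbp* was -4.49 (SE 1.83, n = 11, p = 0.0298 in edgeR, adjusted p = 0.998) without WT male 3, when it ranked 65th, and -1.03 (SE 0.64, p = 0.130) without scaling factors. With no filter on low counts it was 1 of 92 genes called (-2.39, edgeR adjusted p = 5.22e-08). Of the genes at a mean of at least 1 CPM, the most negative by p beside *Dbp* were *Phlda1*, *Lsg1*, *Gm30807* and *Upp2*, and the most positive were *Loxl1*, *Crip1*, *Ifi27l2b*, *Sod3* and *Tff3*. *Upp2*, a uridine phosphorylase that was also on the list of liver clock outputs, had a slope of -0.76 (SE 0.28, n = 12, p = 0.0173 in edgeR, adjusted p = 1, rank 24). None of these passed the threshold.

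The fit was repeated with *Dbp* in place of *Arntl* as the covariate, a choice made after the counts of both had been seen, since *Dbp* has more reads and a wider range. Again 0% of 7617 genes were called, by edgeR and by limma, and 3.82% had an unadjusted p under 0.05. So did 3 of the 4 members. *Nr1d2* had a slope of 0.49 (SE 0.15, n = 12, p = 0.00710 in edgeR, adjusted p = 0.989), *Nr1d1* 0.20 (SE 0.090, p = 0.0493) and *Arntl* -0.26 (SE 0.12, p = 0.0458), while *Cry1* had -0.12 (SE 0.22, p = 0.596).

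Without IDH2 KO female 3, *Nr1d2* had the lowest p of any gene in the association with *Dbp*. Its slope was 0.41 (SE 0.058, n = 11, p = 3.64e-06 in edgeR, adjusted p = 0.0295), and it ranked 1st of the 8106 genes tested and was the only gene called. With all 12 livers it ranked 24th, and it was 1 of 101 genes called with no filter on low counts (edgeR adjusted p = 0.000113). That of *Arntl* was -0.12 (n = 11, p = 0.314 in edgeR) without WT male 3. *Bhlhe40*, an E-box repressor of the clock from the list of other regulators, had a slope of 0.23 (SE 0.098, n = 12, p = 0.0379 in edgeR, adjusted p = 0.989, rank 201).

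*Fkbp5*, a co-chaperone gene that glucocorticoids induce, had a slope on *Dbp* of 0.46 (SE 0.14, n = 12, p = 0.00593 in edgeR, adjusted p = 0.989, rank 19). Its correlation with *Dbp* over the 12 livers was an r of 0.72 (permutation p = 0.00914) and a rho of 0.78 (permutation p = 0.00460), with an r of 0.75 (permutation p = 0.0165) without the 2 livers farthest in *Dbp*. *Fkbp5* was the only 1 of the 7 tested genes on the list of glucocorticoid-induced genes with an unadjusted p under 0.05. Of the 3 erythroid markers, all with reads, *Hba-a1* and *Hbb-bt*, both hemoglobin genes, had slopes on *Dbp* of -0.61 and -0.70 with an unadjusted p under 0.05, while *Alas2*, the erythroid enzyme of heme synthesis, had 0.073 (SE 0.15). *Alas2* differed by sex, with 73 to 301 reads in males and 0 to 13 in females. It was called higher in WT males than in WT females, where 0.659% of genes were called. *Hba-a1* was lower in WT males with an unadjusted p under 0.05. Between the genotypes, *Hba-a1* had a log2 difference of 2.08 (SE 0.71, edgeR adjusted p = 0.508) and *Hbb-bt* of 1.74 (SE 0.78, edgeR adjusted p = 0.725), both with an unadjusted p under 0.05, and *Alas2* of -0.92 (SE 0.46). The summed level of the 3 markers was 5.22 to 39.3 CPM in WT and 6.66 to 57.4 CPM in IDH2 KO livers, with an r of -0.47 with *Dbp* over the 12 livers. The 3 markers of sinusoidal endothelium, all with reads, had a summed level of 28.4 to 71.4 CPM in WT and 23.6 to 74.6 CPM in IDH2 KO livers, with an r of 0.54 with *Dbp*, and none had an unadjusted p under 0.05 for its slope. The part of either cell type in the levels of *Dbp* was not tested.

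Within a library, the ratio of 2 genes does not depend on the scaling of the library. The reads of *Dbp* per read of *Arntl* were 0.797, 5.87, 0.796 and 1.6 in WT females 1 to 4 and 0.254, 4.75 and 52.4 in WT males 1 to 3. They were 5.30, 5.14 and 0.644 in IDH2 KO females 1 to 3 and 0.113 and 1.55 in IDH2 KO males 1 and 2. The medians were 1.6 in WT and 1.55 in IDH2 KO livers, and each genotype held livers on both sides.

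A contrast over the members gave a like order, which is in part built in, since it holds *Dbp* and *Arntl* themselves. It was the mean log2 CPM of *Nr1d1*, *Nr1d2* and *Dbp* minus that of *Arntl* and *Cry1*, the other members being left out for having under 10 reads per library on average. It was 3.18, 4.81, 3.10 and 3.54 in WT females 1 to 4 and 2.74, 4.67 and 5.58 in WT males 1 to 3. It was 4.55, 4.66 and 2.50 in IDH2 KO females 1 to 3 and 1.65 and 3.61 in IDH2 KO males 1 and 2. WT female 2, WT males 2 and 3 and IDH2 KO females 1 and 2 were at 4.55 or above, and the other 7 livers at 3.61 or below.

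The contrast had a median of 3.54 (2.74 to 5.58) in WT livers and of 3.61 (1.65 to 4.66) in IDH2 KO livers. Livers on the high side and on the low side of it were thus found in both genotypes, and the difference between livers of 1 genotype exceeded that between the genotypes. The time of dissection is not stated for any mouse, and its part in these levels was not tested.

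**Figure D5:**
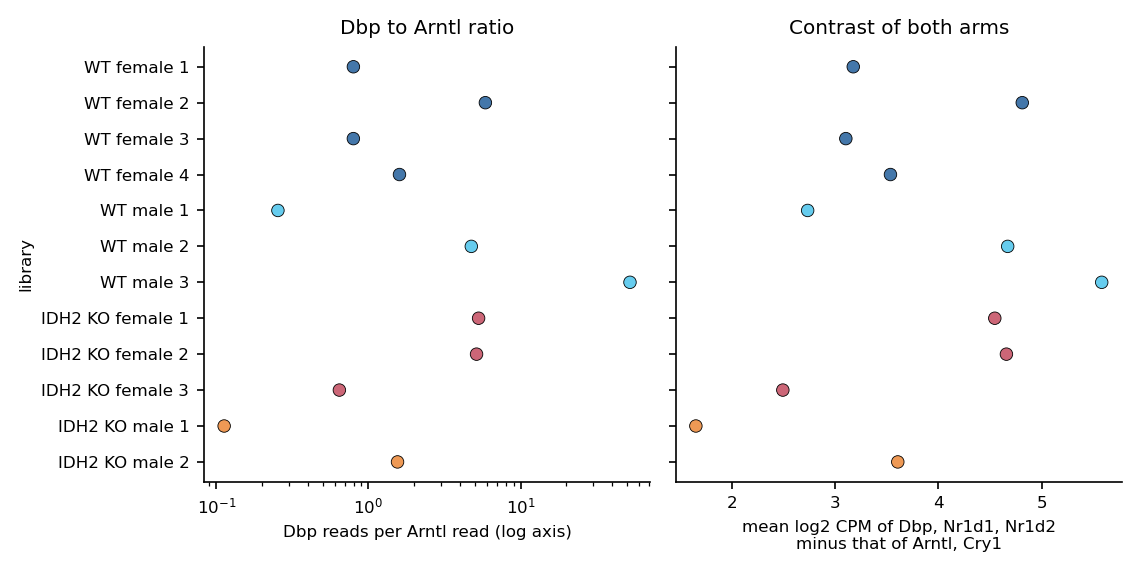
Reads of *Dbp* per read of *Arntl* (left, log axis) and the contrast of mean log2 CPM of *Dbp*, *Nr1d1* and *Nr1d2* minus that of *Arntl* and *Cry1* (right, linear axis) in each of the 12 livers (y axis), coloured by genotype and sex. WT male 3 is highest in both (52.4 and 5.58) and IDH2 KO male 1 lowest (0.113 and 1.65), and both genotypes are spread along the axes.

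Other genes of the clock and its outputs were compared between the genotypes in the same fits. Of 17 other clock regulators 10 had no read and 4 were tested, among them *Csnk1d* and *Bhlhe40*, of which 0 were called in either direction (median log2 difference 0.081). *Bhlhe40* was at 39.6 ± 10.04 CPM (SD, n = 7) in WT and 34.8 ± 17.0 CPM (SD, n = 5) in IDH2 KO livers. Without IDH2 KO female 3 the latter was 40.8 ± 12.1 CPM (SD, n = 4), so the lower mean rests on that library.

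Of 17 liver genes known as clock outputs 7 had no read and 6 were tested, with 0 called. All 6 had a negative log2 difference, as did 50.5% of all genes tested, with a median of -0.31 against -0.0045. They were *Cyp2b10* (-0.91, SE 0.78) and *Cyp2a5* (-0.24, SE 0.37), both detoxification enzymes, *Gys2* (-0.87, SE 0.44), the glycogen synthase of the liver, *Upp2* (-0.33, SE 0.33), *Elovl3* (-0.30, SE 0.37), a fatty acid elongase, and *Nampt* (-0.096, SE 0.30), which makes a precursor of NAD. In males, all 7 outputs tested there had a negative log2 difference, with a median of -1.31 against -0.0084 for all genes, and *Cyp2a5* (-1.31, SE 0.47) and *Gys2* (-1.54, SE 0.66) had an unadjusted p under 0.05, where 4.27% of genes did, with 0 called. In females, 5 of the 7 were negative, as were 51.6% of all genes tested, with a median of -0.24 and none with an unadjusted p under 0.05. *Elovl3* was called higher in WT males than in WT females, by 6.33 (SE 0.54, edgeR adjusted p = 1.06e-05).

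Some low-count clock genes were left out of the genotype test over both sexes and are named here after their values were seen. They had most of their reads in a few livers, of which some were rich in *Dbp*. *Wee1*, a cell cycle kinase gene driven by the clock, had 20 reads in WT female 2, 14 in WT male 2 and 8 in WT male 3, and 0 to 5 in the other 9 libraries. *Bhlhe41*, a relative of *Bhlhe40*, had 34 reads in WT male 2, 16 in WT male 3, 10 in IDH2 KO male 2 and 8 in WT female 2, and 0 to 2 in the other 8. It was tested in the group comparisons, where only male livers reached the filter's minimum count of 10. It was higher in WT males than in WT females with an unadjusted p under 0.05, a direction that the filter favored. There 5.89% of genes had one, and *Bhlhe41* was not called. IDH2 KO females 1 and 2, also rich in *Dbp*, had 4 and 1 reads of *Wee1* and 0 and 1 of *Bhlhe41*, so the match to *Dbp* did not hold in all livers.

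Genes that answer to temperature, glucocorticoids or acute stimulation were read alongside, since these inputs also act on the clock. Of 5 tested temperature-driven genes and 7 tested glucocorticoid-induced genes, 0 were called between the genotypes. Over both sexes 1 of the 5, *Dnajb1*, was higher in IDH2 KO livers with an unadjusted p under 0.05, where 6.72% of genes had one. Within each sex some heat shock genes had an unadjusted p under 0.05, with none called. In females, where 5.25% of all genes did, *Hspa8* (-0.93), *Hspa1b* (-2.51) and *Hsp90aa1* (-0.90) of the 6 tested had negative log2 differences of this kind. In males, where 4.27% did, *Hspa1b* (2.75), *Dnajb1* (1.40) and *Hsp90aa1* (0.80) had positive ones. In the interaction these 4 genes had an unadjusted p under 0.05, where 3.17% of genes did. Of the 7 glucocorticoid-induced genes, *Tsc22d3* and *Tat* were lower in IDH2 KO females with an unadjusted p under 0.05. In males 0 of the 7 had one. *Tsc22d3* also had one in the interaction, with a positive value, and none of the 7 was called. Immediate early genes respond within minutes to stimulation of a cell, and their list was chosen with earlier results of these data known. Of the 9 tested, 5 were called higher in IDH2 KO livers (*Junb*, *Egr1*, *Ier2*, *Dusp1*, *Zfp36*), where 0.381% of 7618 genes were called. The median log2 difference over the 9 was 2.25. With the level of *Dbp*, 0 of these 9 had an unadjusted p under 0.05 and 7 had a negative slope, with a median of -0.11. With the level of *Arntl*, all 9 had a positive slope, with a median of 0.44 against 0.013 for all genes, and 0 had an unadjusted p under 0.05. The part of these genes' inputs in the levels of the clock genes was not tested.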

How the data were processed

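The authors deposited a table of integer read counts for each gene in the 12 libraries, and a filtered table with part of the same counts. FastQC and GRCm38.p5 are named in the submitters' processing notes. Aligner, counter, strand use and treatment of reads shared by transcripts were not given in the sources used here. Groups came from the labels, and 0 per-sample columns were left unused.

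Counts were modelled with edgeR 4.0.16 under R 4.3.3 by its robust quasi-likelihood test after TMM scaling and filterByExpr (minimum count 10, minimum total 15), and p was adjusted by Benjamini-Hochberg over all genes tested (threshold 0.05). Models held sex and genotype, a mean for each of the 4 groups, or sex, genotype and the log2 of CPM (plus 0.5) of *Arntl* or *Dbp*. CPM are counts over library size scaled by TMM. Correlations used numpy 2.4.6 and scipy 1.17.1 in Python 3.11.15. Intervals of read ratios are exact 95% intervals. The tests were tested on simulated counts first. Every pair of libraries of the same group differed beyond sampling noise, with a chi-square of 62.5 or more per degree of freedom.

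The members and lists were chosen with earlier results of these data known. Named genes were all members, called or most abundant genes of the lists, and up to 5 genes per direction of the association with *Arntl*. A gene of the lists that the rule takes is not reported here and stayed in every fit and count. Alternatives were RLE size factors, no scaling, no mitochondrial genes, no filter, the authors' filtered genes, DESeq2 1.42.0, limma 3.58.1, other model terms, a replicate block and omission of single libraries. P values measure the spread between single livers.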

Additional observations from a re-analysis of the deposited data

Results flagged for a closer look

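In the sets of 4 WT females, WT female 2 stood apart for 2 members. *Nr1d2* was at 5.04 on the log2 (CPM + 0.5) scale in it (32.4 CPM, 922 reads), the highest of the 4, and its gap to the nearest of the others took 0.923 of the range, where Dixon's 95% critical value is 0.829. *Dbp* was at 3.90 on the same scale in it (14.4 CPM, 411 reads), with a gap of 0.903 of the range. Of 18 sets of 4 or more libraries looked at, these 2 were past the critical value, and chance alone gives about 1 in 20. WT female 2 was also among the livers with reads of *Per3* and *Wee1*, and its library had the lowest share of mitochondrial reads (22.5%). No member passed the threshold of the interaction of sex and genotype.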

How the results depend on the processing

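None of the 5 members was called between the genotypes over both sexes under any alternative. Counts over all genes moved for IDH2 KO against WT (29), in females (15), in males (8), for WT males against females (57), for the interaction (0), and for the associations with *Arntl* (0) and *Dbp* (0). In that order, no filter on low counts gave 205, 84, 151, 251, 48, 92 and 101, and DESeq2 gave 63, 57, 43, 118 and 10 for the first 5. Without the filter, *Dbp* was called in males (-2.40, adjusted p = 0.00316), in the interaction (-3.14, adjusted p = 0.00327) and with *Arntl* (-2.39, adjusted p = 5.22e-08), and *Nr1d2* (adjusted p = 0.000113) and *Fkbp5* (adjusted p = 0.000368) were called with *Dbp*, all in edgeR. The authors' filtered genes gave 5 genes associated with *Arntl* and 6 with *Dbp*, and the interaction gave 1 with no scaling factors and 2 with limma on log2 (RPM + 1). In males, limma gave 27 on log2 (RPM + 1) and 16 on log2 (RPM + 0.5). The causes were not tested.

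With each library left out, counts were 19 to 33 for the genotypes (19 without IDH2 KO female 1), 9 to 18 in females (9 without WT female 3 or IDH2 KO female 1), 2 to 28 in males (2 without IDH2 KO male 2, 5 without WT male 1 or WT male 3, 14 without IDH2 KO female 2, 28 without IDH2 KO female 3), and 32 to 120 for WT sex (32 without WT female 4, 36 without WT male 1, 120 without IDH2 KO female 3). They were 0 to 2 for the interaction (1 without IDH2 KO male 1, 2 without IDH2 KO female 3), 0 to 0 with *Arntl* and 0 to 1 with *Dbp*. With 1 IDH2 KO male left, that liver is assumed to vary like the others.

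Signs turned for *Dbp* between the genotypes (0.28 without WT female 2, 0.13 without WT male 3, 0.23 without IDH2 KO male 1, a range of -0.68 to 0.28 over omissions) and in WT males against females (-0.034 without WT male 3, up to 2.43), for *Nr1d2* between the genotypes (-0.60 to 0.016, without IDH2 KO female 3), and for *Cry1* with *Arntl* (-0.28 to 0.27, without WT male 3, 0.0121 without scaling factors, 0.0116 with limma on log2 (RPM + 1)). Leaving out each library, added after seeing the data, moved the BCV of *Nr1d2* by over 1.5 times only without IDH2 KO female 3 (0.661 to 0.441). The contrast kept its medians within 1 SD under 3 alternatives. Same-numbered WT and IDH2 KO livers deviated with correlations of -0.18 to 0.08, so the numbers were not taken as pairs, and the replicate block gave 10 genes between the genotypes, 6 in females and 1 in males, with none of the members called. Depth limits *Cry1*, *Per2* and *Per3*.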
